A study of Bos taurus with 12 samples.

Results

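The genes described here encode the chains of integrins and laminins in cattle (Bos taurus) precursor adipocytes. They were chosen by name, as every gene whose symbol is that of an integrin alpha chain (ITGA), an integrin beta chain (ITGB) or a laminin alpha, beta or gamma chain (LAMA, LAMB, LAMC). The rule found 37 chains among 29240 named genes: 18 ITGA, 8 ITGB, 5 LAMA, 3 LAMB and 3 LAMC. Of these, 31 chains had enough reads to be tested, among 16300 genes tested in all.

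Integrins are receptors of the cell surface, each made of 1 alpha and 1 beta chain, that tie the matrix outside a cell to the actin cytoskeleton within it. The alpha chain largely sets the ligand: some alpha chains bind the RGD motif of fibronectin and vitronectin, some bind collagens, some bind laminins, and some occur mainly on leukocytes. Laminins are secreted trimers of an alpha, a beta and a gamma chain and form a sheet in basement membranes, which surround mature fat cells and blood vessels.

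RNA was sequenced from 12 libraries of transfected precursor adipocytes in 4 groups of 3, collected 48 h after transfection. In the interference experiment a group called si, whose target the labels do not name, stood against its negative control si_NC. The OE group received the plasmid pcDNA3.1 with HGFAC, which encodes a secreted serine protease that activates hepatocyte growth factor, and OE_NC received the pcDNA3.1 negative control. No library belongs to both experiments, so a difference between the experiments cannot be told apart from a difference between the reagents. The labels name no animal of origin and no separate culture for each replicate, so p-values measure only how these libraries spread, which may be technical.

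Counts assigned to genes summed to 28.9 to 42.7 M per library. HGFAC stood at 138 to 190 CPM (counts scaled to library size and between libraries by TMM) in the OE libraries and at 0.273 to 0.526 CPM in those of OE_NC. In si it stood at 0.525 to 0.843 CPM and in si_NC at 0.738 to 0.935 CPM (log2 change -0.35, edgeR adjusted p = 0.512). Of the preadipocyte and stromal markers, COL1A1 averaged 3761 CPM and DLK1 0.0689 CPM. Of the markers of mature fat cells, ADIPOQ averaged 0.0604 CPM, PLIN1 1.41 CPM, FABP4 7.10 CPM and LPL, the highest of the list, 15.9 CPM. Single markers of leukocytes (PTPRC, 0.0285 CPM), epithelium (EPCAM, 0.0333 CPM) and endothelium (PECAM1, 0.365 CPM) were near 0, but other members of their lists stood higher. The highest were CD68 of the leukocyte list at 4.40 CPM, KRT19 of the epithelial list at 1.90 CPM and FLT1 of the endothelial list at 64.2 CPM. Median levels of these lists were 1.29, 0.166 and 0.543 CPM. The smooth muscle marker ACTA2 averaged 3321 CPM and DES, a muscle intermediate filament, 569 CPM. Rises and falls over all genes were split differently with library totals in place of edgeR's TMM scaling: rises made up 159 of 812 calls, in place of 362 of 728, in OE against OE_NC, and 298 of 404, in place of 150 of 414, in si against si_NC. For the controls they were 2298 of 3242 in place of 1547 of 3215. In RNA from whole cultures, fewer cells of a type and less RNA per cell cannot be told apart.

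Levels of different chains were compared in RPKM, reads scaled to exon length and library size, which the authors deposited. By the mean over 12 libraries, 10 chains stood at 10 RPKM or more, 7 between 1 and 10 RPKM and 20 below 1 RPKM. The 10 abundant chains were ITGB1, LAMB1, LAMA4, LAMC1, ITGA5, ITGB3, ITGA1, ITGAV, LAMB2 and ITGB5. The cells carried mRNA for receptors of fibronectin, vitronectin and collagen and for 1 main chain of each laminin position. The 6 chains that were not tested were ITGB2, ITGAL, ITGAM and ITGAD, which belong to leukocyte integrins, ITGB6, which occurs in epithelia, and LAMC3. None of these 6 chains had more than 8 reads in any library.

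**Figure D1:**
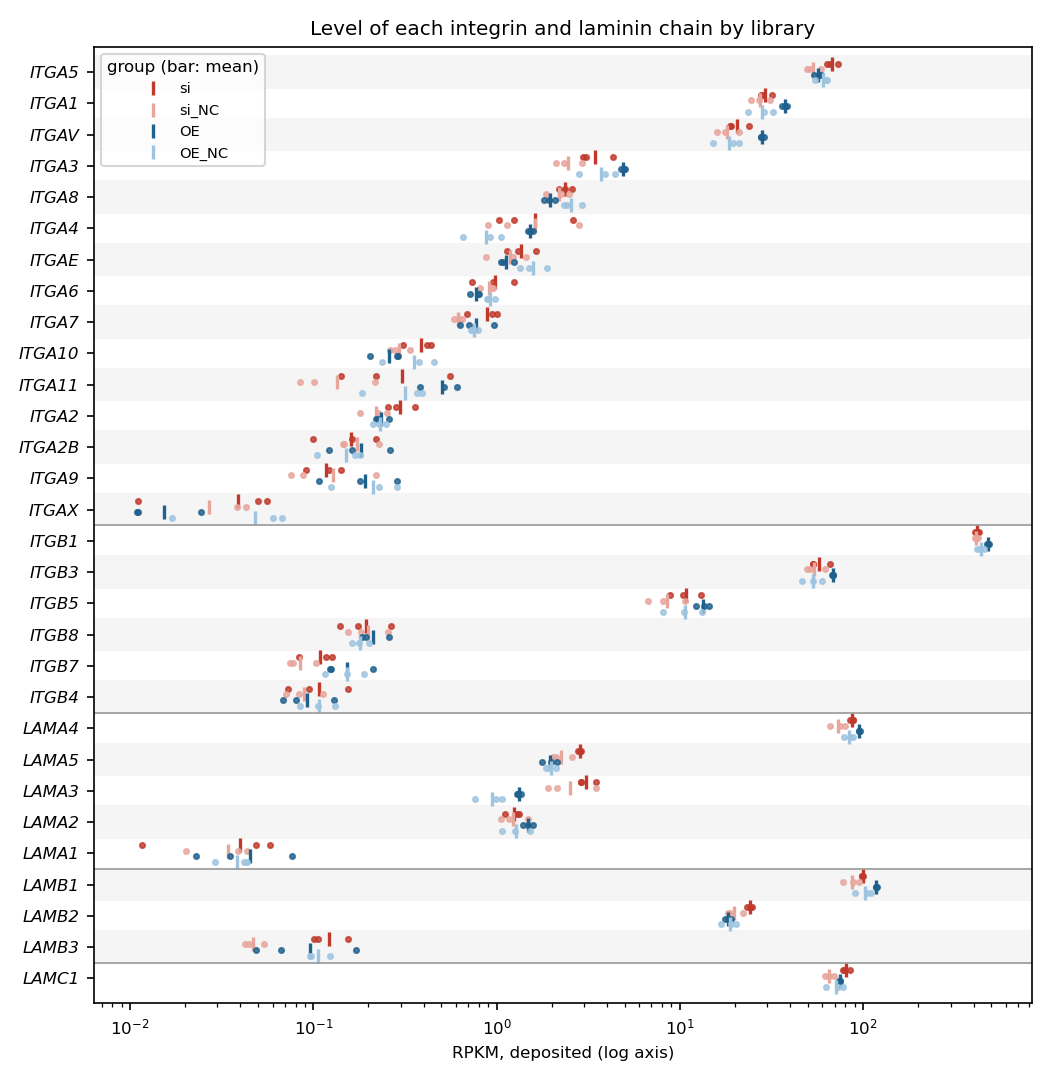
RPKM of the tested chains, all but 1 of 31, on a log axis, with 1 point per library, a bar at each group's mean, and lines between the ITGA, ITGB, LAMA, LAMB and LAMC classes. ITGAX in si_NC replicate 2 had no read and is not drawn as a point. ITGB1 lies highest, between 406 and 488 RPKM, and 1 to 3 chains of each class lie at 10 RPKM or more.

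Among beta chains, ITGB1 made up 84.3 to 88.4 percent of the summed RPKM of the class over the 12 libraries. It pairs with most alpha chains and is part of the collagen receptors and of most laminin receptors. ITGB3, which pairs with ITGAV in many cells and with ITGA2B in platelets, made up 9.77 to 13 percent. ITGB5, another partner of ITGAV, made up 1.44 to 2.58 percent. The remaining tested beta chains were all under 1 RPKM: ITGB8, which binds latent TGF-beta with ITGAV, at 0.196 RPKM, ITGB7 of lymphocytes at 0.125 RPKM and ITGB4 of hemidesmosomes at 0.099 RPKM.

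Among alpha chains, 3 accounted for most of the class. ITGA5, the alpha chain of the main fibronectin receptor, made up 41.1 to 53.1 percent of the summed alpha chain RPKM. ITGA1, a collagen receptor chain, made up 22.3 to 28.3 percent, and ITGAV, which binds vitronectin and latent TGF-beta, 14.5 to 20.9 percent. The other collagen receptor chains were far lower, at 0.324 RPKM for ITGA10, 0.314 RPKM for ITGA11 and 0.246 RPKM for ITGA2. Of the 7268 exon bases of ITGA2, 2633 overlap MOCS2 on the other strand, which averaged 43.4 CPM beside 1.79 CPM for ITGA2, so its low level is uncertain. Laminin receptor chains were low as well, at 3.64 RPKM for ITGA3, 0.896 RPKM for ITGA6 and 0.755 RPKM for ITGA7. ITGA8, an RGD receptor chain of mesenchymal cells, averaged 2.27 RPKM, and ITGA4, which binds VCAM1 and fibronectin, 1.41 RPKM. The summed RPKM of beta chains was 3.58 to 4.70 times that of alpha chains in single libraries.

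Laminin mRNA was made up almost wholly of 1 chain per position except for the beta chain. LAMA4, the alpha chain of laminins in mesenchymal and vascular basement membranes, held 91.3 to 95.5 percent of the summed LAMA RPKM. LAMC1, the gamma chain of most laminins, held 99.2 to 99.6 percent of the LAMC sum. The beta position was shared by LAMB1, at 80.1 to 87.0 percent, and LAMB2, at 12.9 to 19.9 percent. The LAMB2 share was 19.5 ± 0.377 percent in si and 18.4 ± 0.797 percent in si_NC. In the plasmid experiment it was lower, at 13.4 ± 0.408 percent in OE and 15.5 ± 0.103 percent in OE_NC (SD, n = 3 each; no test was run on shares). Over all 12 libraries the summed RPKM of alpha chains was 1.24 ± 0.08 times, and that of beta chains 1.67 ± 0.12 times, the sum of gamma chains (SD, n = 12). LAMA3 and LAMB3, chains of laminins typical of epithelia, stood at 1.96 and 0.0922 RPKM.

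In the overexpression experiment, 3 integrin chains rose and no integrin or laminin chain fell. ITGAV and ITGB3, which together form the vitronectin receptor, and ITGA1 of the collagen receptor were higher in OE than in OE_NC by 1.33-fold to 1.57-fold. The other 28 tested chains did not pass the threshold of an edgeR adjusted p under 0.05. Of all genes tested, 4.47 percent were called in this comparison, 2.22 percent as rises and 2.25 percent as falls.

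ITGAV lies on chromosome 2 (9640552 to 9749535, minus strand, in the coordinates of the count table). It stood at 208, 211 and 216 normalised CPM in OE replicates 1, 2 and 3 and at 111, 140 and 152 CPM in OE_NC. In the interference experiment it stood at 138, 136 and 177 CPM in si and at 125, 159 and 137 CPM in si_NC. All 3 OE libraries lay above the 9 others, and replicate 1 of OE_NC was the lowest of all 12. The log2 change in OE was 0.65 ± 0.12 (SE; 95% interval 0.39 to 0.91, edgeR adjusted p = 0.0161, 3 against 3 libraries).

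ITGB3, on chromosome 19 (46330531 to 46393474, plus strand), stood at 472, 477 and 466 CPM in OE and at 312, 353 and 396 CPM in OE_NC. Its levels were 357, 355 and 447 CPM in si and 369, 429 and 352 CPM in si_NC. The OE libraries lay close together and above the 9 others, while si replicate 3 and si_NC replicate 2 stood apart from the rest of their groups. The log2 change in OE was 0.42 ± 0.10 (95% interval 0.19 to 0.64, edgeR adjusted p = 0.0401).

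ITGA1, on chromosome 20 (26101731 to 26283399, minus strand), stood at 423, 410 and 431 CPM in OE and at 258, 313 and 349 CPM in OE_NC. In si it stood at 303, 310 and 350 CPM and in si_NC at 288, 352 and 314 CPM. Here too the OE libraries lay above the 9 others, and the remaining groups overlapped. The log2 change in OE was 0.46 ± 0.10 (95% interval 0.24 to 0.68, edgeR adjusted p = 0.0286).

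**Figure D2:**
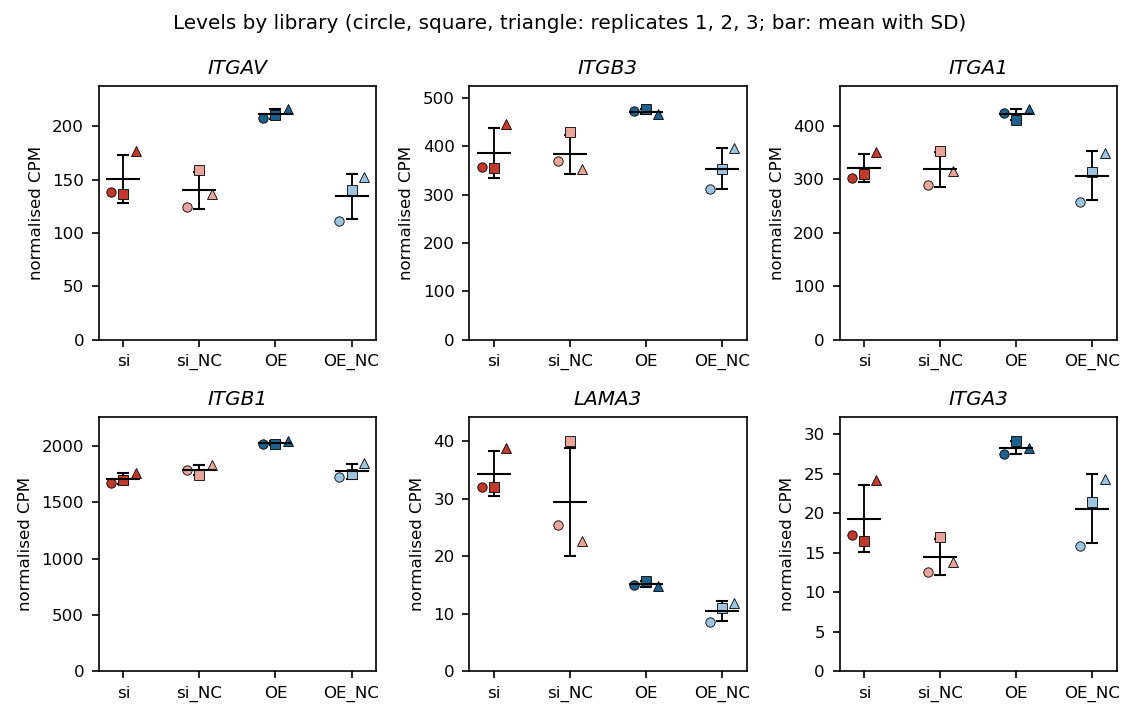
Normalised CPM of 6 chains in each library, with replicates 1, 2 and 3 as circle, square and triangle and the mean with its SD in black; each panel starts at 0. For ITGAV, ITGB3, ITGA1, ITGB1 and ITGA3 the 3 OE libraries lie above the other 9, and for LAMA3 the 6 libraries of si and si_NC lie above the 6 of OE and OE_NC.

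These 3 calls depended on single libraries. Their direction held in every fit that left out 1 library, but the ITGAV call ended without OE replicate 2 (log2 0.65), OE replicate 3 (0.64), OE_NC replicate 1 (0.52) or OE_NC replicate 2 (0.68). The ITGA1 call ended without any 1 of the OE libraries (0.44, 0.47 and 0.45 without replicates 1, 2 and 3), OE_NC replicate 1 (0.34) or OE_NC replicate 2 (0.47). The ITGB3 call ended in 8 of 12 such fits, without OE replicate 1 (0.40), 2 (0.40) or 3 (0.43), OE_NC replicate 1 (0.32) or 2 (0.41), si replicate 1 (0.41) or 2 (0.40), or si_NC replicate 3 (0.41). With 1 OE or OE_NC library left out, calls over all genes fell too: 0.113 percent of genes were called without OE replicate 2 and 0.269 percent without OE_NC replicate 1. The ITGB3 call also ended with library totals in place of edgeR's scaling (log2 0.36) and in limma on log2 RPKM with 1 added (0.36) or 0.1 added (0.37), and the ITGA1 call ended in both limma fits (0.40 and 0.41).

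**Figure D3:**
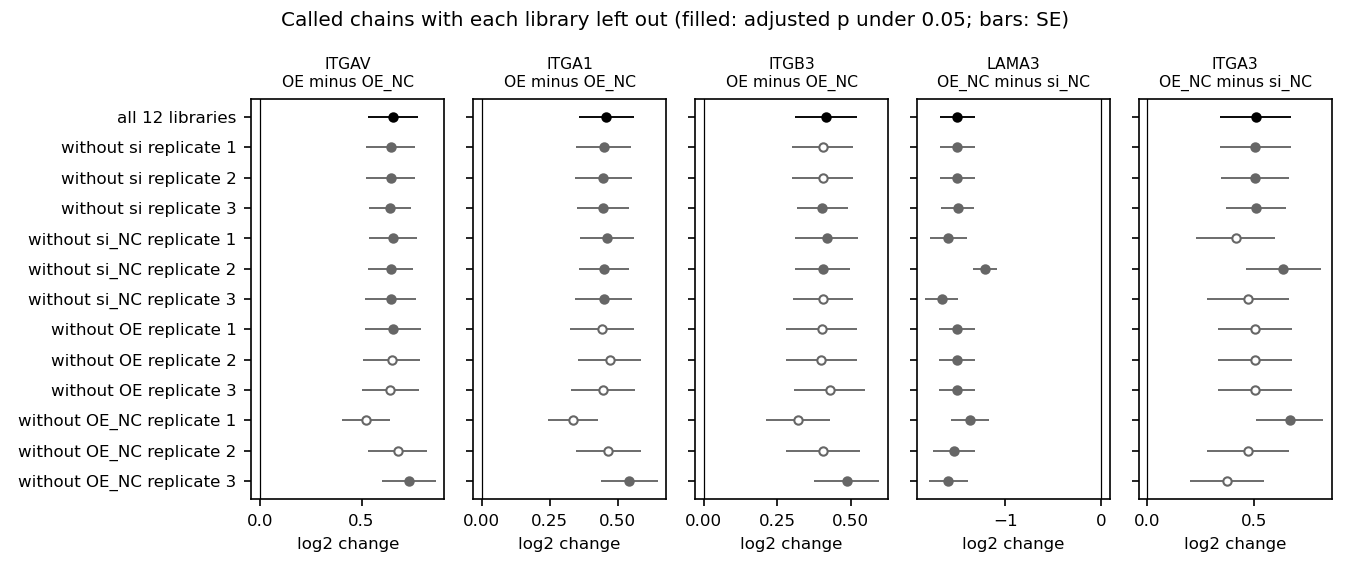
Log2 change with its SE for the 5 called differences, fitted on all 12 libraries (top) and with each library left out in turn; filled points have an edgeR adjusted p under 0.05. All points of a panel lie on the same side of 0, and LAMA3 is filled in all 12 refits.

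Among the chains that were not called, 9 had an unadjusted p under 0.05, which with the 3 called chains makes 12 of 31 against 22.9 percent of all genes tested. Of these 12, 10 were higher in OE and 2 lower, beside 11.1 percent and 11.8 percent of all genes. LAMA4 (log2 0.24, edgeR adjusted p = 0.0583), LAMB1 (0.27, adjusted p = 0.0611) and ITGB1 (0.19, adjusted p = 0.0642), the most abundant chain of its class in each case, came closest to the threshold. LAMA3, ITGA3, ITGA4 and ITGB5 had positive log2 changes of 0.54, 0.46, 0.86 and 0.39. ITGA8 and ITGAE, whose product pairs with ITGB7 and binds E-cadherin, had log2 changes of -0.34 and -0.43. Without OE_NC replicate 1 the estimate was 0.22 for ITGB5, 0.29 for ITGA3 and -0.29 for ITGAE.

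ITGB1, on chromosome 13 (19970664 to 20014499, plus strand), stood at 2018, 2018 and 2048 CPM in OE and at 1722, 1752 and 1846 CPM in OE_NC. In the interference experiment it stood at 1670, 1698 and 1762 CPM in si and at 1782, 1744 and 1832 CPM in si_NC. The OE libraries lay above the 9 others, and si and si_NC overlapped.

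LAMA4, on chromosome 9 (38176082 to 38331079, plus strand), stood at 656, 667 and 668 CPM in OE and at 533, 564 and 590 CPM in OE_NC. Its levels were 595, 588 and 579 CPM in si and 476, 557 and 536 CPM in si_NC. In both experiments the treated libraries lay above all 3 controls, without a call in either.

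LAMB1, on chromosome 4 (48985684 to 49062382, minus strand), stood at 667, 683 and 670 CPM in OE, 501, 573 and 605 CPM in OE_NC, 546, 543 and 557 CPM in si, and 463, 546 and 518 CPM in si_NC. Its OE libraries lay above the 9 others, and si and si_NC overlapped.

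In all, 10 of 31 chains had every OE library above every OE_NC library, against 17.4 percent of all genes tested, and 3 chains (ITGA8, ITGAE and ITGA6) had every OE library below, against 16 percent. In 7 chains (ITGAV, ITGB3, ITGA1, ITGB1, ITGA3, LAMA4 and LAMB1) the 3 OE libraries lay above all 9 others, as they did in 5.1 percent of all genes tested, and in 0 chains they lay below all 9, beside 3.42 percent. The log2 change was above 0 for 22 of 31 chains, beside 49.3 percent of all genes. The median log2 change of the 31 chains was 0.19, beside -0.005 over all genes tested, and without OE_NC replicate 1 it was 0.10 beside -0.01. It was 0.22 for the 10 laminin chains and 0.09 for the 21 integrin chains.

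ITGA5, the most abundant alpha chain, was not called, and its OE and OE_NC libraries overlapped. It lies on chromosome 5 (25662353 to 25683394, plus strand) and stood at 306, 327 and 331 CPM in OE, within the spread of OE_NC at 301, 342 and 341 CPM (log2 -0.03, 95% interval -0.20 to 0.14, edgeR adjusted p = 0.866). Per length, the level of ITGAV was 0.494 ± 0.013 times that of ITGA5 in OE and 0.306 ± 0.029 times in OE_NC (SD, n = 3 each; no test was run on this ratio). Of the 5583 exon bases of ITGA5, 1297 overlap LOC112446663 on the other strand, which averaged 152 CPM beside 332 CPM for ITGA5. The counting strand is not given, so reads of these genes may not be told apart.

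LAMC1, on chromosome 16 (64062643 to 64183739, plus strand), overlapped between the groups, with 574, 579 and 566 CPM in OE and 471, 535 and 574 CPM in OE_NC (log2 0.12, 95% interval -0.04 to 0.28, edgeR adjusted p = 0.352). OE_NC replicate 1 was again the lowest library. In OE_NC, replicate 1 was the lowest of its group for all 10 abundant chains and replicate 3 the highest for 9 of them.

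Other measures moved with the OE comparison as well. DES rose (log2 0.42, edgeR adjusted p = 0.0399), as did MYH11, the smooth muscle myosin (log2 1.01, edgeR adjusted p = 0.0118). The summed level of the smooth muscle and pericyte list was 4590 to 4838 CPM in OE and 4354 to 4828 CPM in OE_NC. Of that list 2 of 5 tested markers were called, DES and MYH11. Of the skeletal muscle list, which also holds DES, no other gene was tested, and MYOD1 averaged 0.0427 CPM. The summed level of the stromal list was 6179 to 6558 CPM in OE and 4133 to 6374 CPM in OE_NC, with 0 of 9 tested markers called. The part of these cell type markers in the integrin changes was not tested.

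Gene length moved with the comparison too. The median log2 change of all genes went from -0.28 for those with under 1000 exon bases to 0.14 for those with at least 7500, and integrin and laminin chains are long, with a median of 5734 exon bases beside 2923 over all genes tested. In the longest class, which holds 7 chains including ITGA1, 6.09 percent of genes rose. In the class from 5000 to 7500 bases, which holds 17 chains including ITGAV and ITGB3, 3.82 percent rose. The median of those 17 chains was 0.02 beside 0.10 over all genes of that class. It was 0.27 beside 0.14 in the longest class and 0.19 beside 0.04 in the class from 3000 to 5000 bases (7 chains). With the trend on length removed from each library, the median over the chains was 0.14 beside 0.02 over all genes, and ITGAV (log2 0.59, edgeR adjusted p = 0.00995), ITGA1 (0.37, adjusted p = 0.019) and ITGB3 (0.35, adjusted p = 0.0378) were still called.

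**Figure D4:**
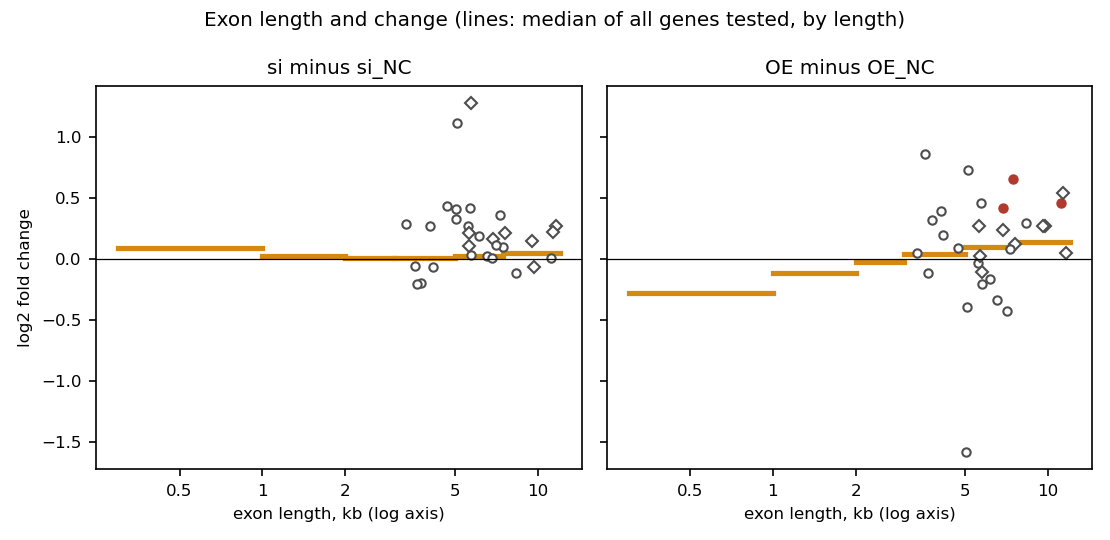
Log2 change of the tested chains, all but 1 of 31, against exon length (log axis) in the interference (left) and overexpression (right) experiments; circles are integrins, diamonds laminins and filled points chains that rose. Orange lines give the median change of all genes of that length, which goes from -0.28 to 0.14 in OE; ITGAV, ITGB3 and ITGA1 lie above the line at their length.

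In the interference experiment no chain passed the threshold, while 2.54 percent of all genes tested were called, 0.92 percent as rises and 1.62 percent as falls. DESeq2 called 1 chain, ITGA5, and 10.5 percent of all genes. Most chains had a positive estimate: 25 of 31 log2 changes were above 0, beside 54 percent of all genes, and the median was 0.17 beside 0.02. At an unadjusted p under 0.05, 9 chains were higher and 0 lower in edgeR, beside 9.03 percent higher and 9.88 percent lower over all genes. They were ITGA5, ITGA3, ITGA7, ITGA11, LAMA4, LAMA5, LAMB2, LAMB3 and LAMC1.

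ITGA5 had the smallest p of these. It stood at 349, 361 and 400 CPM in si and at 289, 336 and 297 CPM in si_NC, so that the groups did not overlap. Its log2 change was 0.27 ± 0.08 (95% interval 0.10 to 0.44, edgeR adjusted p = 0.0875), with the antisense overlap given above.

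LAMC1 stood at 577, 582 and 640 CPM in si and at 498, 537 and 514 CPM in si_NC. The groups did not overlap, and si replicate 3 stood apart upward. Its log2 change was 0.22 ± 0.08 (95% interval 0.05 to 0.38, edgeR adjusted p = 0.139).

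The remaining chains under an unadjusted p of 0.05 had log2 changes of 0.17 for LAMA4, 0.22 for LAMB2 and 0.27 for LAMA5, which encodes an alpha chain of mature basement membranes. Larger estimates came from chains at a lower level, with 0.42 for ITGA3, 0.44 for ITGA7, 1.12 for ITGA11 and 1.28 for LAMB3. Without si replicate 3 the estimate was 0.37 for ITGA11 and 0.22 for ITGA3, and without si_NC replicate 1 that of LAMA4 was 0.10. The LAMB3 estimate rested on 7 to 38 reads per library and had a 95% interval of 0.31 to 2.24. In 7 of 31 chains every si library lay above every si_NC library, against 10.2 percent of all genes tested, and in 0 every one lay below, against 10.6 percent.

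The chains that rose in OE had si estimates near 0, at 0.10 (95% interval -0.16 to 0.36) for ITGAV, 0.01 (-0.21 to 0.23) for ITGA1 and 0.01 (-0.21 to 0.23) for ITGB3. For ITGB1 it was -0.06 (-0.18 to 0.06). These intervals leave room for changes of either sign.

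Levels of some markers differed alongside. The stromal list summed to 5365 to 6878 CPM in si and 3725 to 5478 CPM in si_NC, and 1 of its 9 tested markers, THY1, rose (log2 0.66, edgeR adjusted p = 0.0263). The epithelial list summed to 2.74 to 3.63 CPM in si and 1.64 to 2.18 CPM in si_NC, with 0 of 3 tested markers called and KRT19 the highest of them. Of the smooth muscle and pericyte list 1 of 5 tested markers, CSPG4, rose (log2 0.50, edgeR adjusted p = 0.03). The part of these markers in the values of the chains was not tested.

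Both si replicate 3 and si_NC replicate 2 were the highest of their groups for 9 of the 10 abundant chains. The less abundant ITGA4 also stood highest in these libraries, with 4.35, 3.61 and 9.19 CPM in si and 3.37, 10.3 and 4.21 CPM in si_NC. Without si_NC replicate 2, 3 chains were called: ITGA5 (log2 0.33), LAMA5 and LAMA3. The share of all genes called was then 6.45 percent in place of 2.54 percent. Without both libraries 1 chain, ITGA5, was called, beside 6.7 percent of all genes. The median over the chains was then 0.06 beside 0.02 over all genes.

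**Figure D5:**
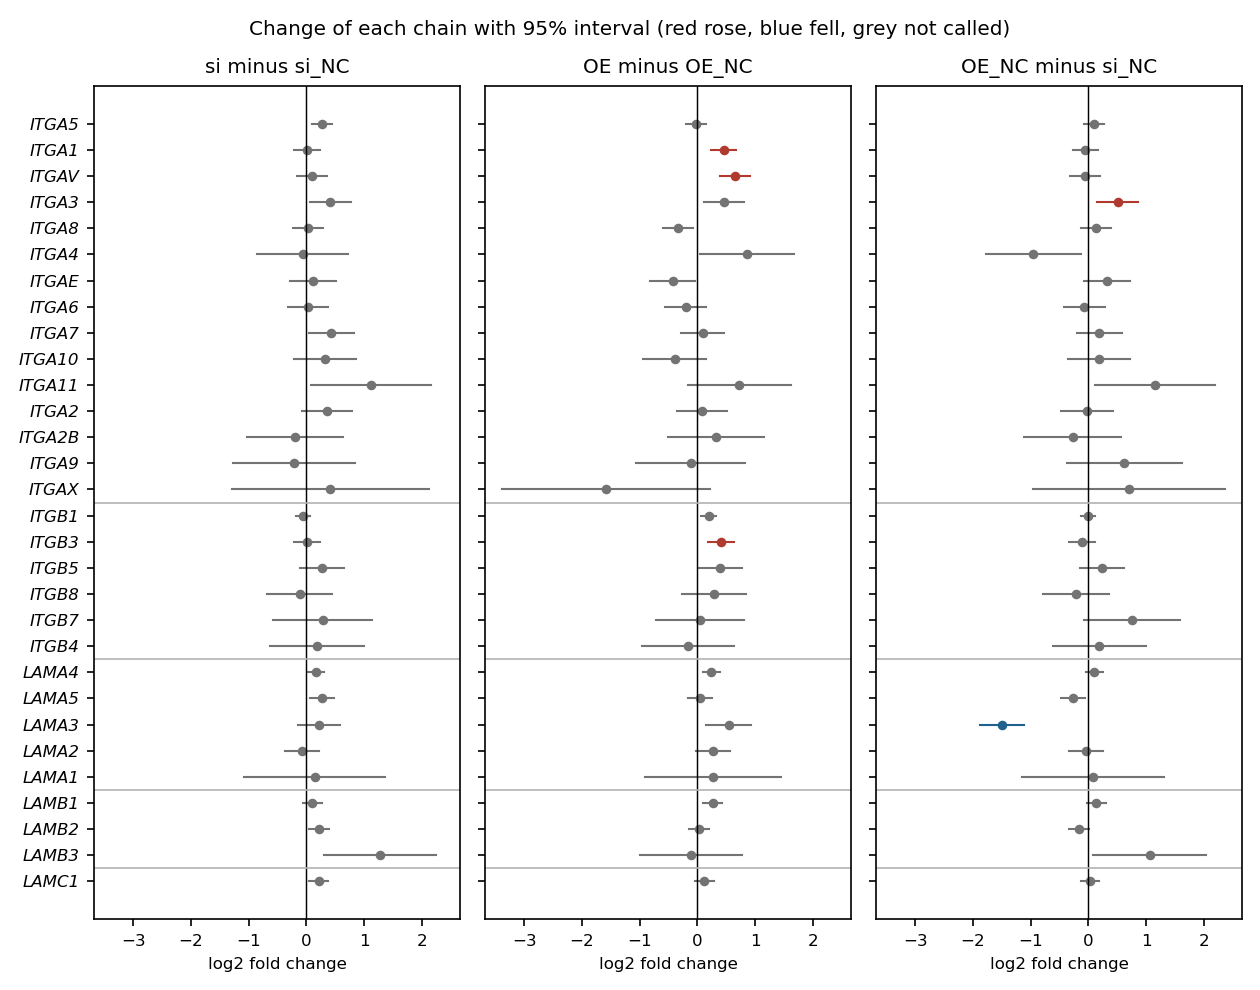
Log2 fold change with its 95% interval for the tested chains, all but 1 of 31, in 3 comparisons, on a shared axis; red points rose, blue fell and grey were not called. In the OE panel ITGA1, ITGAV and ITGB3 are red, the si panel is all grey, and between the controls LAMA3 stands at -1.50.

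Whether the OE and si changes differed was tested as a difference of the 2 signed log2 changes, positive where that in OE lay above that in si. No chain was called, beside 8.41 percent of all genes, 4.29 percent with a positive and 4.12 percent with a negative difference. The estimate was above 0 for 16 of 31 chains, beside 47.4 percent of all genes. DESeq2 called 3, ITGAV, ITGA1 and ITGB1, and 13.3 percent of all genes. In edgeR 6 chains had an unadjusted p under 0.05, beside 24.4 percent of all genes: ITGAV (log2 0.55, edgeR adjusted p = 0.0604), ITGB1 (0.26, adjusted p = 0.0626), ITGA1 (0.45, adjusted p = 0.0699), ITGB3 (0.41, adjusted p = 0.104), ITGA5 (-0.30, adjusted p = 0.119) and LAMB3 (-1.38, adjusted p = 0.182). ITGA5 thus had the larger estimate in si and ITGAV, ITGA1 and ITGB3 in OE, without a call on the difference. Without si replicate 3, ITGAV, ITGA1, ITGB3 and ITGB1 were called, beside 12.8 percent of all genes. Without OE_NC replicate 3, ITGAV and ITGA1 were called, beside 7.16 percent of all genes. Without si_NC replicate 2 the call was ITGA5, beside 7.79 percent, and without OE replicate 3 it was LAMB3, beside 4.93 percent.

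Between the 2 control groups, LAMA3 fell and ITGA3 rose in OE_NC relative to si_NC. Their products meet at the cell surface, since laminins with the LAMA3 chain are the best known ligands of the receptor with ITGA3. Of all genes tested, 19.7 percent were called in this comparison, 9.49 percent as rises and 10.2 percent as falls, and 2 of 31 chains were. The log2 change was above 0 for 18 of 31 chains, beside 52.3 percent of all genes. The epithelial marker list, in which EPCAM was near 0, summed to 2.73 to 3.49 CPM in OE_NC beside 1.64 to 2.18 CPM in si_NC, with 0 of 3 tested markers called. Of the stromal list 1 of 9 tested markers, THY1, rose (log2 1.17, edgeR adjusted p = 0.000151). Of the mature fat cell list 1 of 4, LPL, rose (log2 0.37, edgeR adjusted p = 0.0188). The part of these markers in the values of the chains was not tested. The groups differ by experiment and by control reagent, which cannot be told apart.

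LAMA3 lies on chromosome 24 (32710617 to 32971608, minus strand). It stood at 8.51, 10.9 and 11.8 CPM in OE_NC and at 25.5, 40.2 and 22.6 CPM in si_NC. In OE it stood at 15, 15.7 and 14.8 CPM and in si at 32.1, 32.0 and 38.9 CPM. The 6 libraries of the interference experiment lay above all 6 of the plasmid experiment, which was so for 1 of 31 chains and for 4.93 percent of all genes tested. The log2 change from si_NC to OE_NC was -1.50 ± 0.18 (95% interval -1.88 to -1.11, edgeR adjusted p = 0.000154). It was called in all 12 fits with 1 library left out and was smallest, at -1.21, without si_NC replicate 2.

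ITGA3, on chromosome 19 (36565798 to 36599345, minus strand), stood at 15.8, 21.5 and 24.4 CPM in OE_NC and at 12.6, 17.0 and 13.8 CPM in si_NC. These groups overlapped. In OE it stood at 27.5, 29.2 and 28.2 CPM, above the 9 other libraries, and in si at 17.2, 16.5 and 24.2 CPM. The log2 change from si_NC to OE_NC was 0.51 ± 0.17 (95% interval 0.15 to 0.86, edgeR adjusted p = 0.0446). The call ended without si_NC replicate 1 (log2 0.41) or 3 (0.47), OE_NC replicate 2 (0.47) or 3 (0.37), or any 1 OE library (0.50 each), with only the 2 control groups in the fit (0.51), and in limma on log2 RPKM with 1 added (0.44).

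In 4 of 31 chains every OE_NC library lay above every si_NC library, against 18.4 percent of all genes, and in 2 every one lay below, against 17.4 percent. LAMB3, ITGB7 and ITGA7 were among the former, and the latter were LAMA3 and LAMA5. Chains at unadjusted p under 0.05 without a call were LAMA5 (log2 -0.27), ITGA4 (-0.96), ITGA11 (1.16) and LAMB3 (1.06), which with the called chains makes 6 of 31 beside 34.1 percent of all genes. Without si_NC replicate 2 the estimate was -0.31 for ITGA4 and -0.18 for LAMA5. Of these 6, 3 were higher and 3 lower in OE_NC, beside 17.2 percent and 16.9 percent of all genes.

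Partners of integrins and laminins were counted from 3 lists. A list of 45 tested genes holds the proteins that activate integrins and link them to actin at focal adhesions. In OE, 0 of them rose or fell by edgeR, beside 2.22 percent and 2.25 percent of all genes. DESeq2 called 2, beside 11.2 percent of all genes, and 7 had an unadjusted p under 0.05 in edgeR, beside 22.9 percent. The median log2 change was 0.02. In si, 0 rose and 2 fell, beside 0.92 percent and 1.62 percent of all genes: ENAH, an actin filament elongation factor (log2 -0.34, edgeR adjusted p = 0.0204), and PARVB, a partner of integrin-linked kinase (log2 -0.76, edgeR adjusted p = 0.025). At an unadjusted p under 0.05 in edgeR, 14 of the 45 differed in si, beside 18.9 percent of all genes. Of these, 9 were higher and 5 lower, beside 9.03 percent and 9.88 percent of all genes. The median in si was 0.09. The difference of log2 changes was positive for ENAH and ACTN1 (0.56 and 0.38, edgeR adjusted p = 0.00419 and 0.0165). Mean CPM of ENAH went from 1628 in si_NC to 1290 in si and from 1350 in OE_NC to 1576 in OE. That of ACTN1 went from 1270 to 1113 and from 1118 to 1272. For TGFB1I1 the difference was negative (-0.68, edgeR adjusted p = 0.0215), with 13.9 to 18.4 CPM in the interference and 26.2 to 21.6 CPM in the plasmid experiment. With library totals 1 difference was positive and 5 negative. The TGFB1I1 call ended without si replicate 1, si_NC replicate 3, OE replicate 2 or 3, or OE_NC replicate 2, when 0 differences were negative. Without OE replicate 2 or OE_NC replicate 2, 1 in place of 2 was positive. In these fits 3.53 to 5.69 percent of all genes were called for the difference, in place of 8.41 percent. Between the controls 4 of the 45 rose and 5 fell, or 7 and 2 with library totals, which is near the 19.7 percent of all genes called there. TGFB1I1, a focal adhesion adaptor (log2 0.91), and ILK, integrin-linked kinase (0.30), rose, and FLNC, an actin crosslinker (-0.37), and PTK2, focal adhesion kinase (-0.28), fell. Both ENAH and PARVB lost their call in si without si replicate 1 or 2 or without si_NC replicate 1, when 0 genes of the list fell. In those fits 0.334 to 0.437 percent of all genes were called in si, in place of 2.54 percent. Without si_NC replicate 3, 1 gene of the list fell, beside 0.804 percent of all genes called. Both genes also lost their call in both limma fits. With only si and si_NC in the fit, 8 genes in all were called in si, and 0 genes of this list or of the 2 that follow were among them.

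The second list holds 37 tested basement membrane proteins and laminin receptors other than integrins. In OE 0 rose and 1 fell, TINAGL1, a matrix protein that binds laminin and integrins (log2 -0.29, edgeR adjusted p = 0.0305), and the median log2 change was 0.21. That call ended without any 1 OE library, without OE_NC replicate 1 or 2, and once the length trend was taken out. With 1 of these libraries left out, 0.113 to 1.34 percent of all genes were called in OE. Calls over all genes in OE were 2.22 percent as rises and 2.25 percent as falls. At an unadjusted p under 0.05, 10 of the 37 were higher in OE and 1 lower, beside 11.1 percent and 11.8 percent of all genes. In si 0 of the 37 were called by edgeR, beside 2.54 percent of all genes, and 2 by DESeq2, beside 10.5 percent. In edgeR 8 had an unadjusted p under 0.05, beside 18.9 percent of all genes, and the median was 0.13. Between the controls 1 rose, EFEMP2 (log2 0.66), and 6 fell, in all 7 of 37 and near the 19.7 percent of all genes called. The falls included TINAGL1 (log2 -0.74), COL4A2, a chain of type IV collagen (-0.66), and NID2, which joins laminin to that collagen (-0.40); with library totals 4 rose and 3 fell. Without si_NC replicate 3 or OE_NC replicate 2 the calls numbered 4, as 1 rise and 3 falls, beside 14.7 and 11.3 percent of all genes. For HSPG2, the proteoglycan perlecan, and EFEMP2 the difference of log2 changes was negative (-0.56 and -0.45, edgeR adjusted p = 0.042 and 0.0317). Mean CPM of HSPG2 went from 171 in si_NC to 231 in si and from 168 in OE_NC to 154 in OE. That of EFEMP2 went from 34.9 to 42.4 and from 55.2 to 49.2. Both calls ended without any 1 OE library, without si replicate 1 or 2, without si_NC replicate 1 or 3, or without OE_NC replicate 2. In those fits 3.53 to 5.69 percent of all genes were called for the difference, in place of 8.41 percent. Without OE_NC replicate 3, 1 gene of the list was called, beside 7.16 percent of all genes.

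The third list holds 33 tested ligands of integrins other than laminins, among them 6 collagen chains. In OE 4 rose and 0 fell, beside 2.22 percent and 2.25 percent of all genes, or 2 and 1 with library totals, and the median log2 change was 0.19. They were ADAM17, a membrane protease that binds integrins (log2 0.40, edgeR adjusted p = 0.0119), POSTN, the matrix protein periostin (0.32, adjusted p = 0.0303), FN1, fibronectin (0.59, adjusted p = 0.0474), and LTBP1, which holds latent TGF-beta in the matrix (0.42, adjusted p = 0.048). As with ITGAV, 0 ligands rose without OE replicate 2 or 3 or without OE_NC replicate 1 or 2, and 1 rose without OE replicate 1. Of all genes, 0.113 to 0.269 percent were called in the former fits, in place of 4.47 percent. Without OE replicate 1 the share was 1.34 percent. In si 1 rose, beside 0.92 percent of all genes, TGFBI (log2 0.50, edgeR adjusted p = 0.0254), and the median was 0.14. Without si replicate 1, si_NC replicate 1, si_NC replicate 3 or OE replicate 2, 0 rose. In those fits 0.334 to 1.28 percent of all genes were called in si, in place of 2.54 percent. The difference of log2 changes was positive for ADAM17 (0.55, edgeR adjusted p = 0.00524). It was negative for MFGE8, which binds ITGAV receptors (-0.40, edgeR adjusted p = 0.0126), and TGFBI (-0.59, edgeR adjusted p = 0.0273). Mean CPM of ADAM17 went from 78.6 in si_NC to 71.2 in si and from 68.5 in OE_NC to 90.6 in OE. That of MFGE8 went from 199 to 234 and from 263 to 234, and that of TGFBI from 24.2 to 34.3 and from 37.1 to 35.0. In place of 2 genes, 1 of the list was called with a negative difference without any 1 OE library, without si_NC replicate 1 or without OE_NC replicate 2. In those fits 3.53 to 5.36 percent of all genes were called for the difference, in place of 8.41 percent. Between the controls 2 rose, MFGE8 (log2 0.40) and TGFBI (0.62), and 5 fell, among them SPP1, osteopontin (-0.92), and POSTN (-0.30). These counts are near the 19.7 percent of all genes called. With library totals 4 rose and 1 fell. Without OE_NC replicate 2, 2 rose and 2 fell, beside 11.3 percent of all genes called.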

How the data were processed

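RNA-seq libraries of cattle precursor adipocytes (12, in 4 groups of 3) were grouped by sample title; the title s_NC2 was read as si_NC replicate 2. Per the labels' protocols, TRIzol was used for extraction and a stranded kit with polyA selection for the libraries. Raw counts per gene were deposited by the authors; fastp 0.23.0 and featureCounts (Subread 1.5.1) were used, per the submitters' processing notes. As to aligner, genome build and counting strand, these were not given in the sources used here. RPKM, deposited by the authors too, equalled count over exon length and column total within a relative difference of 5.1e-15. Even values made up 66.2 to 69.3 percent of counts above 0, so halved counts were tried. All 12 columns were mapped. Left out were 2 entries without a gene name, with 0.0868 to 0.116 percent of each library's counts. Pearson correlations of log2 CPM within groups were 0.984 to 0.993.

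The test of counts was that of edgeR 4.0.16 (R 4.3.3), with TMM scaling, filterByExpr (minimum count 10, total 15), quasi-likelihood F test in 1 fit of all 12 libraries with 8 residual degrees of freedom, Benjamini-Hochberg adjustment over 16300 genes, threshold 0.05. A comparison of 2 groups thus borrows its spread from all 4. CPM use TMM library sizes, and SE is the log2 change over the square root of F. The procedure was tested on simulated data. Alternatives were DESeq2 1.42.0 (size factors, Wald test), library totals, other filters, a fit of the compared groups alone, a replicate block, limma 3.58.1 on log2 RPKM plus 1 or 0.1, halved counts, a spline on exon length (4 degrees of freedom) removed, and leaving out libraries.

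The chains, the 12 gene lists and the rule for named genes were chosen with earlier results of these data known. Values of all libraries are given for called chains and the most abundant chain of each class, chains with an unadjusted p under 0.05 are named, and of each pathway list up to 4 called genes, smallest p first. Library values of ITGA4, chains named for their order between groups, and marker genes go beyond this rule and were chosen after their values were seen. Of 187 listed symbols 3 were matched by synonym and 2 not at all. The values of 1 chain are not reported here. Coordinates are those of the count table, with chromosome numbers taken through gene symbols from a RefSeq gene table.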

Additional observations from a re-analysis of the deposited data

How the results depend on the processing

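The number of chains called varied with the processing, and no named change reversed. Percentages in brackets give the share of all genes called in the same fit. For OE against OE_NC (3 chains, 4.47 percent) it was 7 with the Wald test of DESeq2 (11.2 percent). It was 9 with no filter on low counts (5.74 percent) and 9 with only the groups compared (10.3 percent). With limma on log2 RPKM plus 1 or 0.1 it was 1 (3.75 and 3.21 percent). Without si replicate 3 and si_NC replicate 2 it was 11 (13.9 percent). With 1 library left out it went from 0 to 6 (0.113 to 8.44 percent). For si against si_NC (0 chains, 2.54 percent) it was 1 with library totals (2.48 percent), 1 with DESeq2 (10.5 percent) and 2 with no filter (4.13 percent). It was 1 without that pair of libraries (6.7 percent), and 0 to 3 with 1 library left out (0.334 to 6.45 percent). For the difference of the changes (0, 8.41 percent) it was 1 with library totals (9.41 percent), 3 with DESeq2 (13.3 percent) and 4 with no filter (6.6 percent). It was 1 in both limma fits (8.74 and 8.57 percent) and 5 with the length trend removed (11.1 percent). Without that pair it was 5 (13.8 percent), and with 1 library left out 0 to 4 (3.53 to 12.8 percent). For the controls (2, 19.7 percent) it was 4 with no filter (12.5 percent) and 1 with only the groups compared (15.6 percent). It was 1 with limma on log2 RPKM plus 1 (19.6 percent), and 1 to 4 with 1 library left out (11.3 to 23 percent). The cause was not tested, and most of these settings also moved the share of all genes called, in OE from 4.47 percent to 13.9 percent without that pair. With replicate number as a block, 4 chains were called in OE (4.93 percent), 0 in si (2.43 percent), 2 for the difference (7.65 percent) and 2 for the controls (19.3 percent). No shared deviation of same-numbered libraries was seen: they correlated at -0.257 to 0.092 in the interference and -0.015 to 0.045 in the plasmid experiment. With 3 libraries a group, these correlations cannot settle whether the numbers pair the libraries. The highest correlation between si and si_NC libraries was 0.332, for si replicate 3 with si_NC replicate 2, whose numbers differ. Library totals shifted the median log2 change of all genes to 0.10 in si, -0.06 in OE, -0.16 for the difference and 0.11 for the controls. Chains under 1 RPKM, 20 of 37, rest on few reads, and their intervals are wide.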
